A study of Glycine max with 2 samples.

Results

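The 60 genes whose RNA was most abundant in nuclei of the cotyledon-stage soybean seed are described here across the tissues of the seed. They were chosen by their sums over all nuclei of unique molecular identifiers (UMIs), the tags that let captured RNA molecules be counted once, after 10 named genes had been left out, and they are 60 of 56044 genes listed and of 49306 genes with at least 1 UMI. Because the sums chose the members, the sums are given as a description and support nothing else. Nuclei came from pooled cotyledon-stage seeds of Glycine max cultivar Williams 82, an inbred line, with no treatment and no second genotype. RNA and open chromatin were captured from the same nuclei, and only the RNA library was used here. There was 1 RNA library, so nuclei are not replicates, no test was made, and each difference has no replicate check. Intervals are at 95% and cover counting error only, whether exact Poisson intervals for sums or exact binomial (Clopper-Pearson) intervals for shares.

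A soybean seed at this stage holds an embryo, an endosperm that surrounds it, and a maternal seed coat made of an epidermis, an outer and an inner integument, an endothelium and vascular strands. The seed coat carries sugars and amino acids from the mother plant toward the embryo, and its epidermis is the layer in which flavonoid pigments accumulate. RNA in nuclei includes transcripts that are still being made or spliced, so an abundant nuclear RNA need not be the most abundant RNA of the cell. An abundant RNA can also leak from broken cells into the droplets of other nuclei, and the deposited counts are those left after a computed correction for this background.

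In all 39881831 UMIs were counted, and single nuclei (8636) had between 199 and 111060 of them, with 2945.5 at the median. Clusters were built without the members and the 10 left-out genes, and 16 of 21 clusters were assigned from marker genes to 7 classes of nuclei. These were embryo-like (1048 nuclei), endosperm-like (1031), seed coat epidermis-like (1101), outer integument-like (2233), vascular-like (566), inner integument-like (287) and endothelium-like nuclei (382). Levels are given in CPM, the UMIs of a gene per 1000000 UMIs of the group. Each marker list had its highest summed level among the 7 classes in the class named from it. For example, outer integument markers were at 8838 CPM in outer integument-like nuclei against 2068 CPM in vascular-like nuclei. The naming used these same lists, so this is no separate check of the names. The markers came from the study and rest partly on these same nuclei. The other 1988 nuclei fell into 5 clusters that no list named, and each is called here by the gene with the highest fold in it: Glyma.08G342000 (575 nuclei), Glyma.09G040800 (516), Glyma.06G307400 (509), Glyma.16G107500 (199) and Glyma.13G029900 (189). Median depth was 5789 UMIs in endosperm-like nuclei, 1898 in endothelium-like nuclei and 1201 in the Glyma.06G307400 cluster.

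The members held 1857709 UMIs, 4.66% of the library. Glyma.10G214500, whose best protein match in the study's tables is a soybean auxin down-regulated protein, had 178448 UMIs. Glyma.09G178100, similar to the Arabidopsis beta-glucosidase BGLU44, had 78011 UMIs. Glyma.05G092300, for which those tables give no annotation, had 48244 UMIs. After these 3 genes the sums fell slowly with rank, and the limit of the list lies on a slope, not at a gap. Glyma.01G163400 was the last gene inside it with 17669 UMIs, and Glyma.18G155800 was the first outside it with 17515 UMIs. Of the 10 left-out genes, 7 ranked above the last member. By their identifiers the members lie on all 20 chromosomes, with 1 to 5 on each, and 1 (Glyma.U009100) is not placed on a chromosome.

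**Figure D1:**
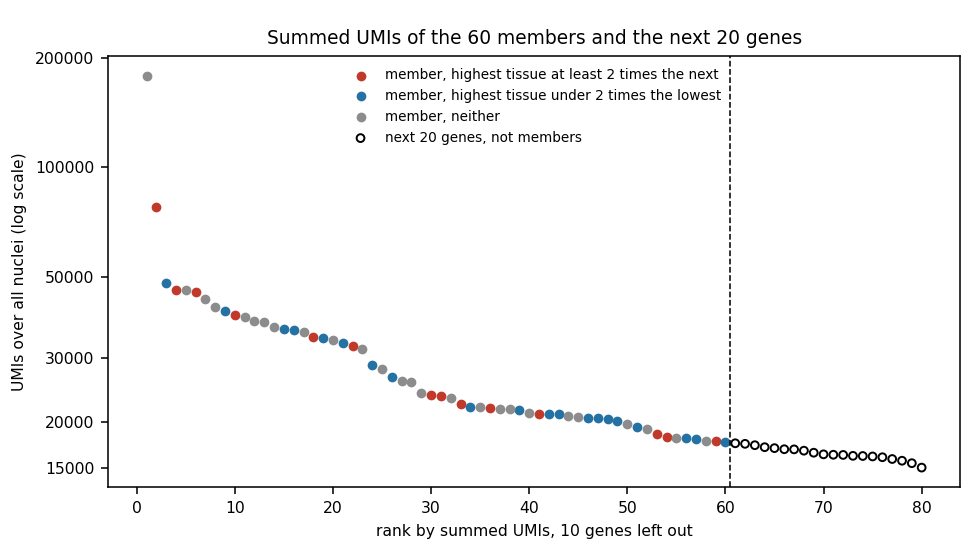
Summed UMIs over 8636 nuclei (log scale) against rank for the 60 members (filled points, colored by their pattern over tissues) and the next 20 genes (open points), with the limit of the list as a dashed line. Glyma.10G214500 stands alone at 178448 UMIs, and the values run on from 17669 to 17515 UMIs across the limit without a gap.

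The study's tables give a best Arabidopsis match for 25 of the 60 members. A further 3 members had a protein match only: Glyma.10G214500, and Glyma.08G269900 and Glyma.05G084500, which share 1 best match to a rice retrotransposon protein. Those tables list chiefly genes that differed between seed regions or clusters, so genes at an even level are less likely to be in them. Among the annotated genes that were held, 156 carried the words ribosomal protein, 126 of these with at least 1000 UMIs, and 1 was a member (Glyma.14G061100, the ribosomal stalk protein P0). Of 328 kinase genes and 56 genes with RNA-binding or splicing words, 0 were members, and of 11 storage protein genes 0 were members and 0 reached 1000 UMIs. Over all 4674 annotated genes held, 25 were members (0.535%), and a count of 0 in the smaller of these groups is near that share. Members included 3 of 28 genes with lipid transfer words, 2 of 29 peroxidases, 2 of 37 galactosidases or glucosidases, 2 of 14 genes with lipoxygenase words and 2 of 10 ubiquitins.

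The 60 members together took the largest share of RNA in outer integument-like nuclei among the 7 tissues. They held 5.31% (5.29 to 5.32) of UMIs there and 3.63% in seed coat epidermis-like, 3.35% in vascular-like, 3.28% in inner integument-like and 3.19% in endothelium-like nuclei. They held 2.66% in embryo-like and 2.19% (2.18 to 2.21) in endosperm-like nuclei, so the seed coat classes were all above the embryo and the endosperm. The endosperm-like nuclei were the deepest of the classes, and the part of depth in this order was not tested. Outer integument-like nuclei gave the most UMIs of any class (9428621), so levels in them weighed most in the sums that chose the members. Endosperm-like nuclei gave the next most (7496257) and had the lowest share. How far class size shaped the list was not tested. The order of shares is therefore a description of the chosen genes only. Shares were larger still in 4 of the 5 unnamed clusters than in the outer integument, at 10.3% in the Glyma.08G342000 cluster, 8.74% in the Glyma.16G107500 cluster, 5.78% in the Glyma.06G307400 cluster and 5.66% in the Glyma.09G040800 cluster. Without Glyma.10G214500 the share in the Glyma.08G342000 cluster was 6.45%. The unnamed clusters held 42.5% of the members' UMIs and 26.1% of all UMIs of the library.

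Single members were lowest in endosperm-like nuclei in 25 of 60 cases, against 16.6% of all genes with at least 1000 UMIs. They were highest in outer integument-like nuclei in 16 cases (background 9.88%), in endothelium-like nuclei in 15 (12.2%), in embryo-like nuclei in 7 (17.3%), in epidermis-like nuclei in 7 (12.4%), in vascular-like nuclei in 7 (10.4%), in inner integument-like nuclei in 6 (15.2%) and in endosperm-like nuclei in 2 (22.5%). These counts depended on the naming of nuclei: the epidermis was highest in 23 members at resolution 1.5 and in 22 with log-normalized counts or with nuclei assigned by markers without clusters, the outer integument in 16, 16 and 21, and the endothelium in 7, 7 and 2. A member kept its highest tissue in 44, 45 and 33 of 60 cases under these 3 settings. The choice by sums also gave most weight to levels in the outer integument, the class with most UMIs. A member was called tissue-leaning when its highest tissue was at least 2 times the next, and even when its highest tissue was under 2 times its lowest. By these rules 14 members (23.3%) leaned to 1 tissue, against 10.1% of 11920 genes with at least 1000 UMIs and 28.6% of the 227 genes with at least 10000 UMIs. Even members numbered 20 (33.3%), against 35.4% of genes with at least 1000 UMIs and 30.4% of those with at least 10000, and 26 members were neither. Of these 227 genes 167 were not members, so here the members are compared partly with themselves. Beside the 227, the members' share was a little lower for leaning and a little higher for even genes. Without clusters 10 members leaned, all of them among the 14. At 4 times the next tissue 6 members were left, against 3.36% of genes with at least 1000 UMIs. The count of even members depended on the groups: over all 12 groups, the unnamed clusters included, 2 members were even (background 5.96%) and 10 leaned to 1 group (background 6.46%). Of these 10, 4 leaned to the outer integument (background 0.906%), 4 to the Glyma.08G342000 cluster (0.361%), 1 to the Glyma.16G107500 cluster (0.436%) and 1 to the Glyma.13G029900 cluster (0.436%). The group with the highest level was the Glyma.06G307400 cluster in 20 members (background 11%), the Glyma.08G342000 cluster in 10 (5.62%), the outer integument in 10 (6.38%) and the Glyma.16G107500 cluster in 7 (4.39%).

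**Figure D2:**
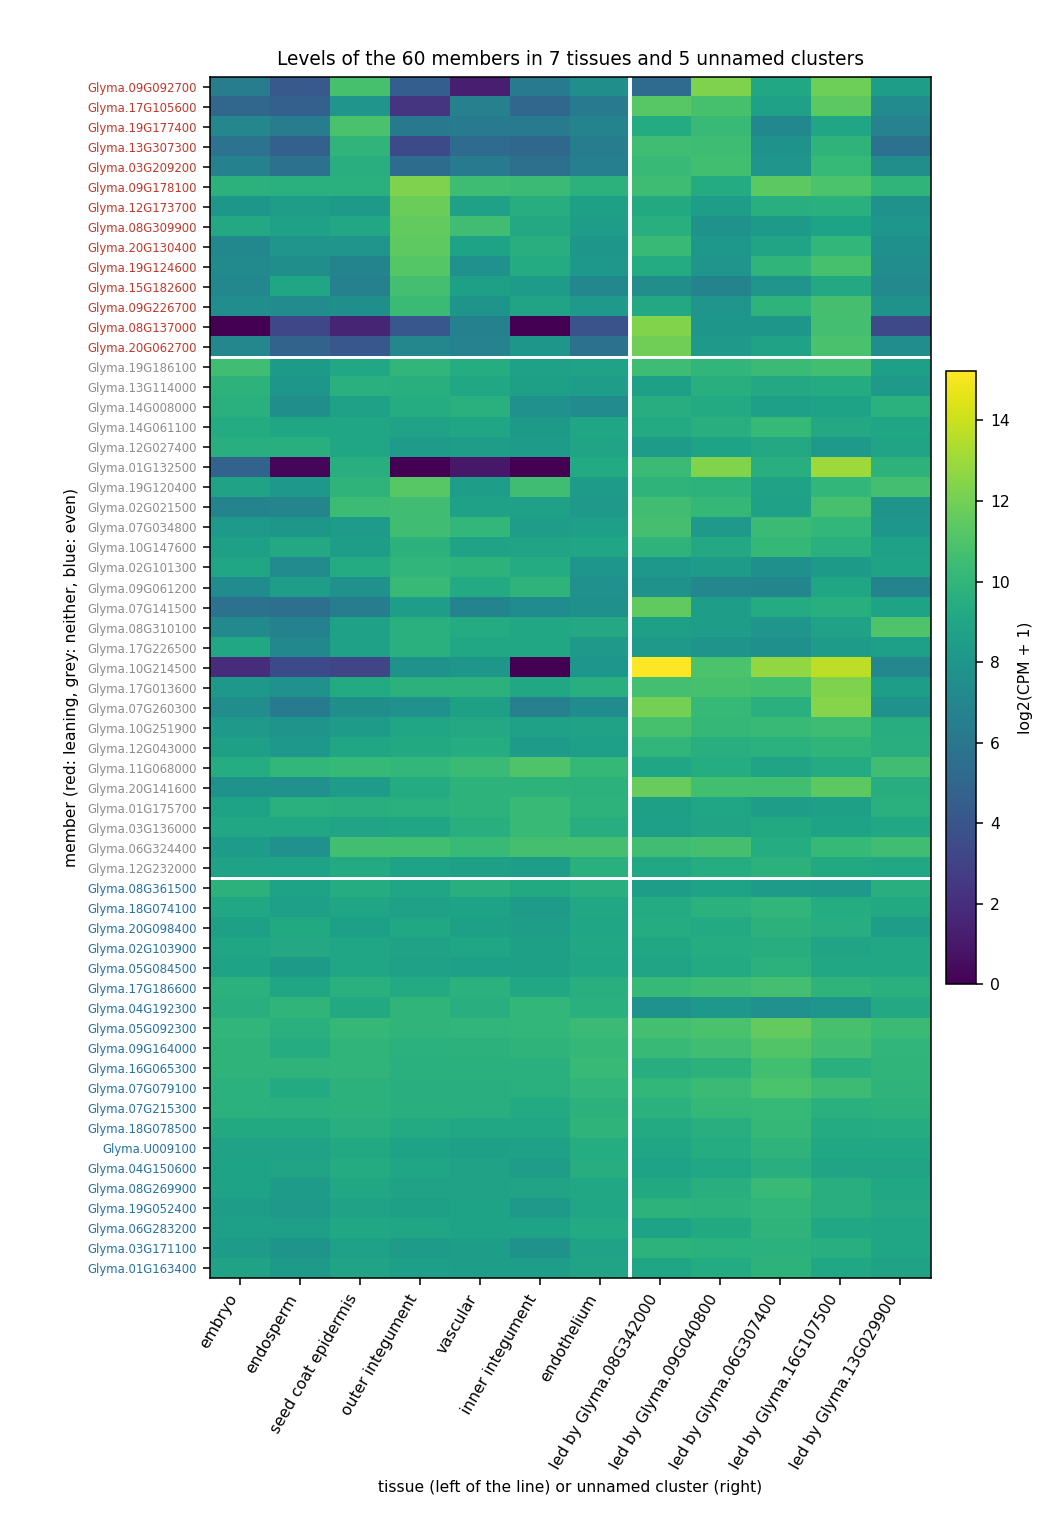
Levels of the 60 members as log2(CPM + 1), 1 row per member, in 7 marker-named tissues (left of the white line) and 5 unnamed clusters (right of it). Rows are ordered as 14 leaning members (red names), 26 that are neither (grey) and 20 even members (blue), and several leaning or grey rows reach their highest level to the right of the line, above all Glyma.10G214500 in the Glyma.08G342000 cluster.

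The choice by sums gave most weight to levels in the outer integument, the class with most UMIs. How far this shaped the list was not tested. Of the 60 members, 7 leaned to the outer integument, against 1.8% of genes with at least 1000 UMIs. They were 7 of the 14 leaning members. No share by tissue was computed for genes with at least 10000 UMIs. All 7 have an annotation, and 4 of them are similar to glycoside hydrolases, enzymes that take sugars off polysaccharides or small glycosides. Glyma.09G178100 (BGLU44) was at 4948 CPM (4903 to 4993) in outer integument-like nuclei and at 1426 CPM in vascular-like nuclei, the next tissue, a fold of 3.47. Glyma.12G173700, similar to BGAL8, a beta-galactosidase, was at 3574 CPM in outer integument-like and 724 CPM in inner integument-like nuclei, a fold of 4.94. Glyma.20G130400, similar to FUC95A, an alpha-fucosidase that acts on xyloglucan in Arabidopsis, was at 2817 CPM in outer integument-like and 736 CPM in inner integument-like nuclei. These 3 genes were thus several times higher in the outer integument than in any other named tissue, and the next tissue was maternal in each case. Their folds were lower with nuclei assigned by markers without clusters, at 2.26 for Glyma.09G178100, 2.86 for Glyma.12G173700 and 2.32 for Glyma.20G130400. Glyma.19G124600, similar to ASD1, an alpha-L-arabinofuranosidase that trims arabinose side chains, was at 2342 CPM in outer integument-like and 655 CPM in inner integument-like nuclei. The study itself used Glyma.09G178100, Glyma.12G173700 and Glyma.19G124600 as outer integument markers, so their direction is not independent evidence. They were dropped from the marker list before clusters were assigned.

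The other 3 members that leaned to the outer integument have different roles. Glyma.08G309900, similar to GAUT15 of the galacturonosyltransferase family that makes pectin, was at 3073 CPM in outer integument-like and 1494 CPM in vascular-like nuclei, a fold of 2.06 that is close to the limit. Glyma.15G182600, similar to the sucrose synthase SUS4, which splits sucrose for sugar metabolism and wall synthesis, was at 1633 CPM in outer integument-like and 520 CPM in endosperm-like nuclei. Glyma.09G226700, similar to the serine carboxypeptidase-like scpl40, was at 1320 CPM in outer integument-like and 469 CPM in inner integument-like nuclei. These 7 members had between 72.9% and 55.5% of their UMIs in outer integument-like nuclei. The class is not uniform: across its 4 clusters Glyma.19G124600 ranged between 4049 and 293 CPM, and Glyma.08G309900 between 4814 and 1130 CPM. The cluster in which Glyma.08G309900 was highest was the one in which Glyma.09G178100, Glyma.12G173700, Glyma.20G130400, Glyma.19G124600 and Glyma.09G226700 were lowest. In that cluster Glyma.09G178100 (3685 CPM), Glyma.12G173700 (1706 CPM) and Glyma.20G130400 (1488 CPM) were still at least 2 times the highest cluster of any other named tissue, while Glyma.19G124600 and Glyma.09G226700 (364 CPM) were below it. Among the unnamed clusters, Glyma.09G226700 was higher in the Glyma.16G107500 cluster (1674 CPM) than in the outer integument, and markers of the outer integument were at 4452 CPM in that cluster.

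Of the 60 members, 5 leaned to the seed coat epidermis, against 2.67% of genes with at least 1000 UMIs. Glyma.19G177400, similar to TTG2, a WRKY transcription factor that acts in seed coat pigmentation and trichomes in Arabidopsis, was at 1819 CPM (1779 to 1859) in epidermis-like nuclei and 132 CPM in embryo-like nuclei. That fold of 13.8 was the highest among the 60 members, and it was 5.25 with nuclei assigned by markers without clusters. A UMI of Glyma.19G177400 was found in 93.6% of epidermis-like nuclei and in 9.69% of endothelium-like nuclei, whose median depths were 2514 and 1898 UMIs. Thinned to 500 UMIs per nucleus, these shares were 59.6% and 3.67%, so the difference held at equal depth. Glyma.13G307300, a MYB-related gene similar to ETC1, which in Arabidopsis restrains trichome formation, was at 1018 CPM in epidermis-like and 88.2 CPM in endothelium-like nuclei. Glyma.09G092700, for which no annotation was held, was at 1781 CPM in epidermis-like and 190 CPM in endothelium-like nuclei.

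The last 2 members that leaned to the epidermis also lack an annotation. Glyma.03G209200 was at 744 CPM in epidermis-like and 103 CPM in embryo-like nuclei, a fold of 7.22. Glyma.17G105600 was at 241 CPM in epidermis-like and 100 CPM in vascular-like nuclei, a fold of 2.41. Without clusters the folds were lower, at 3.04 for Glyma.13G307300, 3.06 for Glyma.09G092700 and 2.34 for Glyma.03G209200, and Glyma.17G105600 at 1.30 no longer leaned. With clusters named from 3 markers they were 4.16 for Glyma.09G092700 and 4.40 for Glyma.03G209200. Of the 5, only Glyma.19G177400 had its highest level over all 12 groups in the epidermis, and 1203 CPM in the Glyma.09G040800 cluster was its next value. Glyma.09G092700 reached 4914 CPM in the Glyma.09G040800 cluster, Glyma.03G209200 reached 1548 CPM there, and Glyma.13G307300 was at 1495 CPM in the Glyma.08G342000 cluster and 1445 CPM in the Glyma.09G040800 cluster. Glyma.17G105600 was at 2684 CPM in the Glyma.16G107500 cluster and 2451 CPM in the Glyma.08G342000 cluster, many times its epidermal level. Markers of the epidermis were at 1955 CPM in the Glyma.09G040800 cluster, at 4880 CPM in epidermis-like nuclei and at 189.8 CPM in vascular-like nuclei, so that cluster shared epidermal markers at a reduced level and was still not named by the rule. The naming depended on the setting: the epidermis class held 1101 nuclei here, 1623 at resolution 1.5 and 1579 with log-normalized counts. Which nuclei joined it was not traced.

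**Figure D3:**
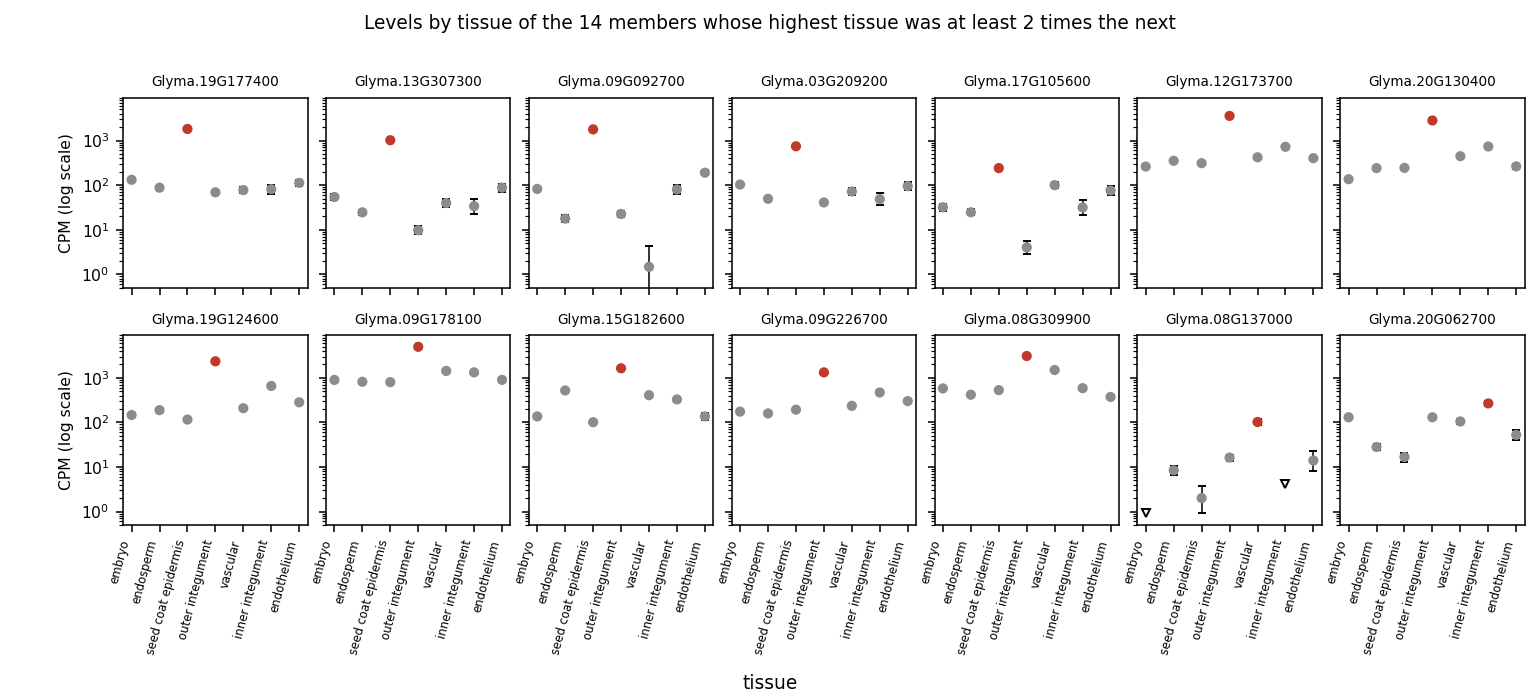
CPM (log scale) by tissue of the 14 tissue-leaning members, with the highest tissue in red, the other 6 in grey, and bars for exact Poisson 95% intervals. Open triangles mark the upper limit where 0 UMIs were counted. The 5 epidermal genes stand first, then the 7 outer integument genes, and Glyma.08G137000 and Glyma.20G062700 last, whose highest tissues reach only 102.0 and 266 CPM.

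The remaining 2 leaning members were low in every named tissue, and leaned to the vascular class (background 0.881%) and the inner integument (1.12%). Glyma.08G137000, a PLAT/LH2 domain protein, was at 102.0 CPM in vascular-like and 16.2 CPM in outer integument-like nuclei. Glyma.20G062700, of the lipid-transfer and 2S albumin superfamily, was at 266 CPM in inner integument-like and 130 CPM in embryo-like nuclei. Both were highest in the Glyma.08G342000 cluster, at 5224 CPM and 3867 CPM, and that cluster held 84.4% of the UMIs of Glyma.08G137000. Their leaning between named tissues therefore concerned a small part of their RNA, and it moved to another tissue when nuclei were assigned without clusters.

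The most abundant member, Glyma.10G214500, was low in the named tissues after the correction, with the clusters named as here. It was at 38359 CPM (38162 to 38556) in the Glyma.08G342000 cluster, at 13595 CPM in the Glyma.16G107500 cluster, at 7018 CPM in the Glyma.06G307400 cluster and at 1964 CPM in the Glyma.09G040800 cluster. In the named tissues it was at 261 CPM in vascular-like, 252 CPM in endothelium-like and 223 CPM in outer integument-like nuclei, and under 10 CPM in the other 4, with 0 UMIs in inner integument-like nuclei, an upper limit of 4.16 CPM. The vascular-like and endothelium-like values overlapped within their intervals. The named tissues held more of it where they took in nuclei of the unnamed clusters. It was then at 946 CPM in the epidermis at resolution 1.5 and 598 CPM with log-normalized counts. It was at 1709 CPM in the outer integument with clusters named from 3 markers, a setting added after the data were seen. With nuclei assigned without clusters it was at 8410.5 CPM in the outer integument and at 1636 CPM or more in each of the 7 tissues. The Glyma.08G342000 cluster held 81.8% of its UMIs, and there 99.7% of nuclei had a UMI, with a median of 98 UMIs or 2.97% of the nucleus. The fullest nucleus had 7076 UMIs of this gene. By contrast 0.182% (0.0220 to 0.655) of epidermis-like nuclei had a UMI of it, and the median depths of the cluster and of the epidermis were 3188 and 2514 UMIs. The study's markers of the 7 tissues were low in the Glyma.08G342000 cluster: the highest list was that of the outer integument, at 1981 CPM against 8838 CPM in outer integument-like nuclei.

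Other members shared this pattern of a high level in unnamed clusters. Glyma.01G132500, similar to the lipid transfer protein LTP4, was at 8007 CPM in the Glyma.16G107500 cluster and 5238 CPM in the Glyma.09G040800 cluster. In epidermis-like and endothelium-like nuclei it was at 791 and 632 CPM, in outer and inner integument-like nuclei it had 0 UMIs, and in embryo-like nuclei it was at 27.2 CPM. Glyma.07G141500, also of the lipid-transfer superfamily, was at 2885 CPM in the Glyma.08G342000 cluster and 370.5 CPM in outer integument-like nuclei, its highest named tissue. In all, 13 members had at least 50% of their UMIs in the unnamed clusters, against 4.17% of genes with at least 1000 UMIs. They were Glyma.10G214500, Glyma.01G132500, Glyma.17G013600, Glyma.20G141600, Glyma.09G092700, Glyma.07G260300, Glyma.10G251900, Glyma.08G137000, Glyma.17G105600, Glyma.20G062700, Glyma.07G141500, Glyma.13G307300 and Glyma.03G209200. All 3 annotated lipid-transfer members, both peroxidases and both ubiquitins are among them.

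The 20 even members were found in most nuclei. Their share of nuclei with a UMI ranged between 52.4% and 83.9%, and 1 of the 20, Glyma.03G171100, similar to the heat shock cognate chaperone HSC70-1, had an Arabidopsis match. Glyma.05G092300 was at 1320 CPM in endothelium-like, 1132 CPM in epidermis-like and 1085 CPM in inner integument-like nuclei, and at 809 CPM (789 to 830) in endosperm-like nuclei, its lowest tissue. Glyma.07G215300 was the most even member, with 881 CPM in endothelium-like and 627 CPM in inner integument-like nuclei at the ends of its range, a ratio of 1.41. Next in evenness came Glyma.02G103900, Glyma.01G163400 (ratio 1.51), Glyma.16G065300 (1.52), Glyma.08G269900 (1.55) and Glyma.06G283200 (1.61). Glyma.16G065300 was at 1215 CPM in endothelium-like and 800.0 CPM in vascular-like nuclei, and Glyma.02G103900 at 594 CPM in endosperm-like and 396 CPM in inner integument-like nuclei. The highest tissue of even members was the endothelium in 13 of 20 (background 12.2%), the class with the lowest median depth. The lowest was the endosperm, the deepest class, in 10 of 20 (background 16.6%). Both backgrounds are over genes with at least 1000 UMIs, and the shares among even genes alone were not computed. The count for the endothelium depended on the naming of nuclei. Of all 60 members, 7 were highest in it at resolution 1.5 and 2 without clusters. Whether depth takes part in these counts was not tested. Only 1 member, Glyma.07G215300, stayed under a ratio of 1.5. The pair with the 1 shared retrotransposon match stayed close, with Glyma.08G269900 at 527 CPM and Glyma.05G084500 at 506 CPM in epidermis-like nuclei and at 347 and 313 CPM in endosperm-like nuclei, the lowest tissue of both. Glyma.09G164000 and Glyma.07G079100 ran in step, since Glyma.09G164000 was 1.09 to 1.22 times as high in each of 12 groups, with a Pearson correlation of 0.99 over 21 clusters.

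Even over the named tissues did not mean even over the library. In the shallow Glyma.06G307400 cluster, 17 of the 20 even members had their highest level over all 12 groups, with a median ratio of 1.93 to all other nuclei. Of genes with at least 1000 UMIs, 11% were highest there, and the share among even genes alone was not computed. Glyma.05G092300 was at 3101 CPM in that cluster and 1173 CPM in all other nuclei, and this ratio of 2.64 was the highest among the members. Glyma.04G192300 went the other way: it was at 208 CPM in that cluster and 730 CPM in all other nuclei, a ratio of 0.286. Over the 21 clusters the log2(CPM + 1) values of these 2 genes had a Pearson correlation of -0.88, as a description over groups of 1 library. Among all members, 9 were at least 2 times higher in the shallow cluster, against 7.22% of genes with at least 1000 UMIs, and 13 were at most 0.5 times as high, against 24.8%. The median ratio was 1.38 over the members and 0.777 over those genes. Outer integument markers were at 3123 CPM in the cluster, against 8838 CPM in their own class. Embryo markers were at 530 CPM, against 2204 CPM in their own class. Vascular markers were at 570 CPM, below the 780 CPM in outer integument-like nuclei and the 5900 CPM in vascular-like nuclei. The outer integument marker gene Glyma.09G178100 was at 2678.6 CPM in the cluster.

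**Figure D4:**
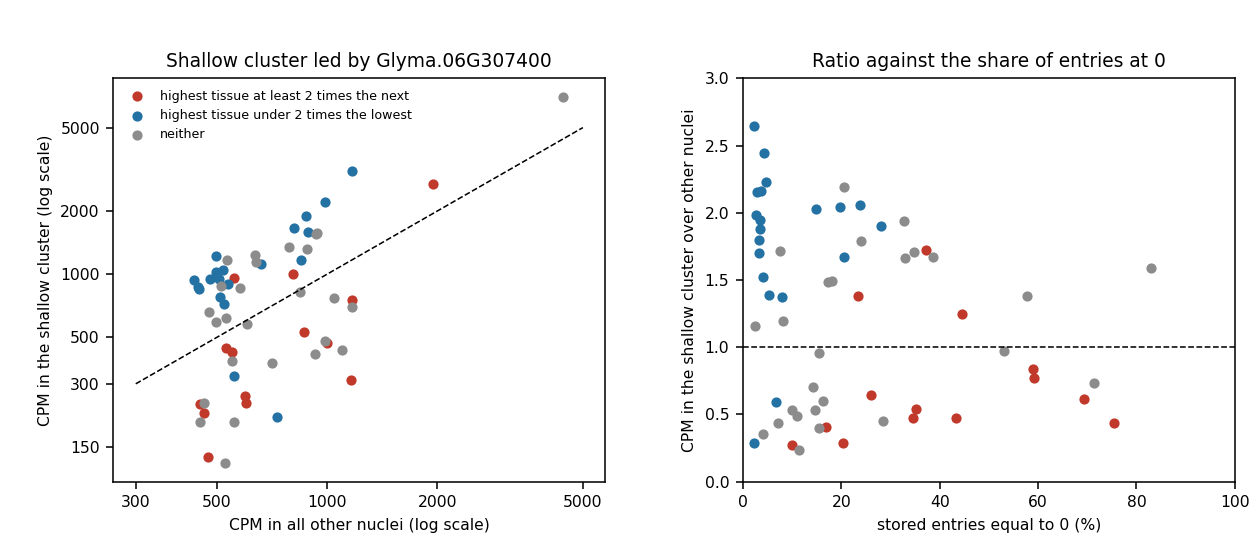
Left, CPM of each member in the Glyma.06G307400 cluster against all other nuclei (both log scales), with equality as a dashed line. Right, the ratio of the 2 levels against the share of stored entries equal to 0. Even members (blue) lie mostly above equality, up to 2.64, and most tissue-leaning members (red) lie below it.

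Depth within a tissue showed a different picture. When the nuclei of each named tissue were split at the middle of their depth, the level in the shallower nuclei over that in the deeper nuclei, as a median over 7 tissues, was above 1 in 4 of 60 members. Over genes with at least 1000 UMIs the median ratio was above 1 in 49.9%. The median over members was 0.813 and over all these genes 0.999. The even members had a median of 0.832, with a range of 0.694 to 0.994. The sums that chose the members give deep nuclei more weight, and how far this shaped the list was not tested. By this median all 20 even members were lower in the shallower nuclei of tissues, while most were higher in the shallow cluster.

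Of the 26 members that were neither even nor leaning, several separated blocks of tissues. Glyma.06G324400, with no annotation held, was at 1709 CPM in endothelium-like, 1695 CPM in inner integument-like, 1594 CPM in outer integument-like and 1564 CPM in epidermis-like nuclei, values whose neighbors overlapped within their intervals. In vascular-like nuclei it was at 1214 CPM, while in embryo-like and endosperm-like nuclei it was at 329 and 205 CPM, so it was several times higher in each seed coat class than in the embryo or the endosperm. Glyma.02G021500, similar to the membrane protein HIR1, was at 1533 CPM in outer integument-like and 1395 CPM in epidermis-like nuclei and at 110 CPM in embryo-like nuclei. Glyma.19G120400, similar to an isopropylmalate synthase of leucine synthesis, was at 2436 CPM in outer integument-like and 1493 CPM in inner integument-like nuclei and at 274 CPM in endosperm-like nuclei. These members split the seed coat layers in different ways.

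The inner integument was the highest tissue of 3 unannotated members with broad expression, chosen here after their values were seen. Glyma.11G068000 was at 2060 CPM in inner integument-like and 700 CPM in embryo-like nuclei, Glyma.01G175700 at 1288 and 453 CPM, and Glyma.03G136000 at 1229 and 554 CPM. All 3 were lower in the Glyma.08G342000 cluster than in any named tissue. Others were shared by the outer integument and the vascular class. Glyma.07G034800, similar to the lipoxygenase LOX1, which oxidizes fatty acids, was at 1481 CPM in outer integument-like and 1087 CPM in vascular-like nuclei and at 264 CPM in endosperm-like nuclei. Glyma.02G101300, a cytochrome b561 protein of electron transfer across membranes, was at 1047 CPM in outer integument-like and 903 CPM in vascular-like nuclei and at 164 CPM in endosperm-like nuclei. Glyma.09G061200, similar to the calcium pump ACA8 of the plasma membrane, was instead highest in the outer and then the inner integument. It was at 1234 CPM in outer integument-like, 975 CPM in inner integument-like and 166 CPM in embryo-like nuclei.

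No member leaned to the embryo, the endosperm or the endothelium, where 1.33%, 1.9% and 0.378% of genes with at least 1000 UMIs did. The embryo was the highest tissue of 7 members. Glyma.19G186100, with no annotation held, was at 1503 CPM in embryo-like, 1022 CPM in outer integument-like and 309 CPM in endosperm-like nuclei. Glyma.14G008000, similar to the photosystem II antenna protein LHCB2, was at 818 CPM in embryo-like and 801 CPM in vascular-like nuclei, at 190.5 CPM in endosperm-like nuclei and at 165 CPM in endothelium-like nuclei. Glyma.14G061100 (ribosomal protein P0) was at 658 CPM in embryo-like and 309 CPM in inner integument-like nuclei. The members with the most RNA in the endosperm were Glyma.11G068000 (1075 CPM), Glyma.04G192300 (990 CPM), Glyma.16G065300 (937 CPM) and Glyma.07G215300 (824 CPM), none of which has an annotation and all of which were about as high or higher elsewhere.

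Some members share an annotation, and reads from near-identical copies can be split between them, so their separate values are uncertain. Glyma.20G141600 and Glyma.10G251900 are both similar to the polyubiquitin UBQ14, which marks proteins for breakdown. Glyma.20G141600 was at 3289 CPM in the Glyma.08G342000 cluster, 925 CPM in inner integument-like and 208 CPM in endosperm-like nuclei. Glyma.10G251900 was at 1813 CPM in the same cluster, 410 CPM in inner integument-like and 233 CPM in endosperm-like nuclei. Glyma.20G141600 was the higher of the pair in 10 of 12 groups, within the counting error in epidermis-like nuclei and the Glyma.13G029900 cluster, with a ratio between 2.25 in inner integument-like and 0.773 in embryo-like nuclei, and their levels over 21 clusters had a Pearson correlation of 0.93.

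The peroxidases Glyma.17G013600 and Glyma.07G260300, both similar to PRXR1, parted more. Glyma.17G013600 was at 5086 CPM in the Glyma.16G107500 cluster and 1663 CPM in the Glyma.08G342000 cluster. Glyma.07G260300 was at 5602 CPM and 4235 CPM in these clusters. In the named tissues Glyma.17G013600 was 1.59 to 5.53 times as high as Glyma.07G260300, and in the Glyma.08G342000 cluster 0.393 times, so the order of the pair was turned round there. Glyma.08G309900 and Glyma.08G310100 lie beside each other by identifier, with 1 gene between them. Glyma.08G310100, with no annotation held, was at 2066 CPM in the Glyma.13G029900 cluster and 796 CPM in outer integument-like nuclei. Glyma.08G309900 was at 259 CPM and 3073 CPM in the same groups, and the Pearson correlation of these neighbors over clusters was 0.32.

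The share of nuclei with a UMI is tied to the summed UMIs that chose the members. Its median was 59.4% over the members, 46.0% over the 167 other genes with at least 10000 UMIs and 14.8% over genes with at least 1000. It ranged between 83.9% for Glyma.05G092300 and 11.5% for Glyma.08G137000. With every nucleus thinned to 500 UMIs, which left out 27 nuclei, the median was 21.0%, and the highest share was that of Glyma.09G178100 (43.6%). The 1% of nuclei richest in a member held a median of 17.8% of its UMIs, near the 18.6% of genes with at least 1000 UMIs. In 4 members this 1% held at least 50%, against 1.1% of those genes: Glyma.09G092700 (58.6%), Glyma.08G137000 (56.6%), Glyma.10G214500 (54.8%) and Glyma.01G132500 (51.4%). Outside that 1% of nuclei Glyma.10G214500 still had 80588 UMIs and Glyma.01G132500 had 20177, above the sum of the last member, while Glyma.09G092700 had 14192 and Glyma.08G137000 had 10211, below it. The variance of thinned counts over their mean was 17.8 in Glyma.10G214500 and 1.07 in Glyma.07G215300, where independent draws at 1 common level would give about 1.

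**Figure D5:**
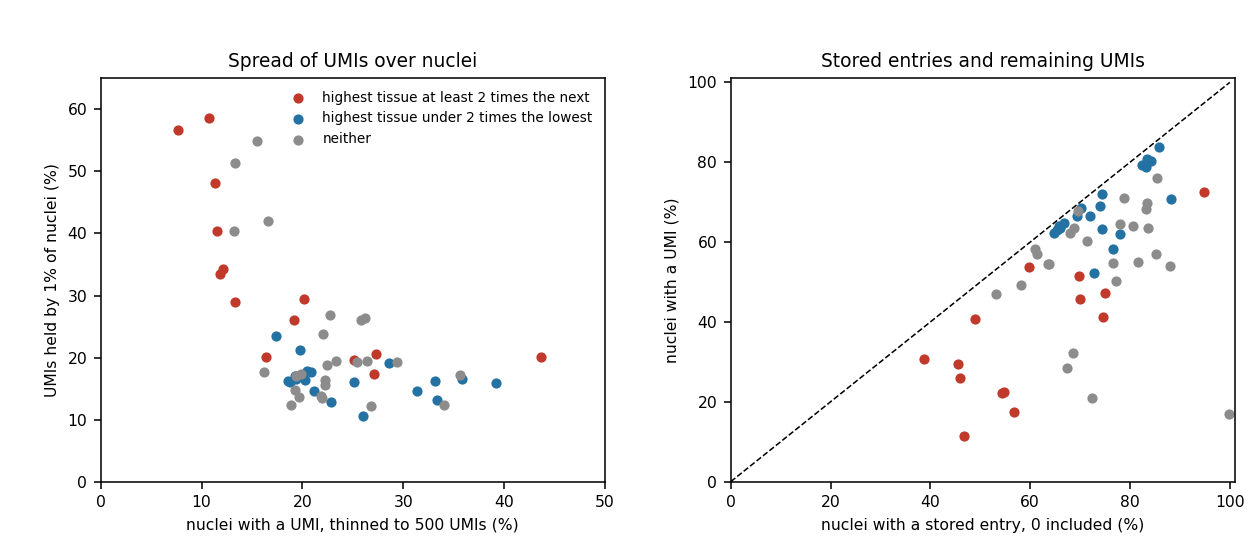
Left, the share of UMIs held by the richest 1% of nuclei against the share of nuclei with a UMI after thinning to 500 UMIs. Right, the share of nuclei with a UMI against the share with any stored entry, where points on the dashed line have no entry equal to 0. Most even members (blue) lie near the line, but some lie well below it, such as Glyma.03G171100 with entries in 72.8% and UMIs in 52.4% of nuclei. Glyma.10G214500 lies at the lower right, with entries in 99.8% of nuclei and UMIs in few of them.

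The deposited table stores 5558393 entries that equal 0, 18.2% of all entries, and these were taken as counts that the background correction removed, which the sources used here do not state. The share of entries equal to 0 had a median of 16.6% over the members and 14.5% over genes with at least 1000 UMIs. In 8 members at least 50% of entries were 0, against 1.04% of those genes: Glyma.10G214500 (83.0%), Glyma.08G137000 (75.4%), Glyma.01G132500 (71.3%), Glyma.09G092700 (69.3%), Glyma.17G105600 (59.2%), Glyma.20G062700 (59.0%), Glyma.07G141500 (57.8%) and Glyma.07G260300 (53.0%). All 8 are among the 13 members with most of their UMIs in unnamed clusters. Glyma.10G214500 had an entry in 8622 of 8636 nuclei and UMIs left in 1468 of them. Its entries were 0 in 97.6% of cases in the named tissues and in 34.2% in the unnamed clusters, and in inner integument-like nuclei all 287 were 0. Before the correction its RNA was thus counted in almost every nucleus, if a stored 0 is a removed count.

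At the other end, Glyma.04G192300 (2.27%), Glyma.05G092300 (2.32%), Glyma.03G136000 (2.40%) and Glyma.16G065300 (3.31%) had few entries at 0. The even members had a median of 4.21% and the leaning members 36.2%. Glyma.12G173700 had an entry equal to 0 in 4.03% of outer integument-like and 31.2% of embryo-like nuclei, and Glyma.19G177400 in 0.636% of epidermis-like and 8.59% of embryo-like nuclei. For both of these genes, entries equal to 0 were thus rarer in the tissue in which the gene was high than in embryo-like nuclei. Counts that were lowered but stayed above 0 cannot be seen, so where most counts were removed is not known. The folds between tissues are those after the correction. How much of each fold it made was not tested.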

How the data were processed

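RNA of nuclei from pooled cotyledon-stage seeds was measured in 1 10x Multiome library. The authors processed reads with bcl2fastq 2.20.0.422 and Cell Ranger ARC 1.0 on assembly Gmax_275_Wm82.a2.v1, then removed background RNA with SoupX at default settings. The deposited matrix of that step holds whole counts of UMIs, with no normalization. The chromatin files were not used.

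Members and gene lists were chosen with earlier results of these data known. Clusters were rebuilt in Seurat 5.3.0 (R 4.3.3, sctransform 0.4.2, 30 components, resolution 1, as in the study's methods) without members and left-out genes. A cluster took the class with the largest share of its markers detected in at least 10% of nuclei at 2 times the level elsewhere, if at least 3 markers and 20% of the list passed. The 20% was set after the data were seen and left the Glyma.16G107500 cluster (2.30% of nuclei), with 3 of 26 outer integument markers, unnamed. The lists held 7 embryo, 7 endosperm, 15 epidermis, 26 outer integument, 11 vascular, 4 inner integument and 3 endothelium genes, and no marker of another class was among the top 10 genes of any cluster. Clusters of 1 class were summed. A Scrublet run (scanpy 1.11.5) marked 0 nuclei, so its calls did not work, and no doublets were removed. Its scores served only to rank nuclei for 1 alternative setting. Levels are UMIs of a gene per 1000000 UMIs of a group. Rebuilt names may differ from the study's. Genes named with values were the 10 members with most UMIs, the 4 highest in each tissue, the 4 leaning members of highest fold per tissue, the 6 most even, the 4 with most and fewest entries at 0 relative to UMIs, annotation pairs and the last member. Others named were chosen after their values were seen. The fold rules were also run on simulated counts with Poisson error only. That run had no background correction and no naming of nuclei, so it does not check the calls made here.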

Additional observations from a re-analysis of the deposited data

How the results depend on the processing

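Of the 60 members, 53 to 60 stayed under the 6 other ways of ranking, with the fewest kept when each nucleus counted equally. All 6 rank again the counts of the 1 library that chose the members, and some use only alternate barcodes of it. Much of this overlap is therefore built in. The tissue settings kept the members chosen by the sums, which give most weight to levels in the class with most UMIs. With these members, the outer integument had the largest share of member UMIs among tissues under every alternative run. This share was 5.31%, and it was 5.37% at resolution 0.5 and 5.37% at resolution 1.5, 5.33% with members in the clustering, 5.34% with log-normalized counts, 4.86% as a mean over nuclei, 4.86% when thinned, 6.77% with nuclei assigned by markers without clusters and 5.39% without the 6% of nuclei of highest doublet score. Naming clusters from 3 markers with no share of the list, chosen after seeing the data, gave 5.69%. The doublet scores came from the run that marked 0 nuclei, so leaving out the highest scores is a weak check against doublets. The number of leaning members was 14, and 6 at 4 times the next tissue. It was 10 without clusters and 13 with 3-marker naming, and 10 of the 14 stayed in each. At resolution 1.5 and with log-normalized counts 12 of the 14 stayed and Glyma.10G214500 and Glyma.01G132500 joined, at resolution 0.5 Glyma.07G260300 joined, and with 3-marker naming Glyma.10G214500, Glyma.07G260300 and Glyma.07G141500 joined. The highest tissue stayed the same in 33 members without clusters and in 44 to 60 under the other settings. The number of even members was 20, 1 under a limit of 1.5 times and 2 over 12 groups, the last added after seeing the data. The median share of nuclei with a UMI was 21.0% thinned to 500 UMIs, 34.4% thinned to 1000 and 59.4% as counted, and the share of UMIs in the richest nuclei was 17.8% for 1% and 41.3% for 5% of nuclei.

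The vascular leaning of Glyma.08G137000 moved to another tissue at resolution 1.5 (fold 1.28), with log-normalized counts (1.17), without clusters (1.03) and with 3-marker naming (1.90). With 3-marker naming the highest tissue also changed for Glyma.17G105600 (1.25) and Glyma.20G062700 (1.22), and for the last also without clusters (1.33). Glyma.08G309900 kept its tissue at a fold of 1.21 without clusters and 1.86 with 3-marker naming, and Glyma.17G105600 kept its own at 1.30 without clusters and at 9.64 and 10.2 at resolution 1.5 and with log-normalized counts. The cause of these changes was not tested. No paired analysis was possible because there is 1 RNA library and no second group. Accessibility at the members was not run, since no gene coordinates of the build were used here.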
